A study of Callithrix jacchus with 54 samples.

Results

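Meiotic prophase genes encode proteins that let homologous chromosomes pair, break and recombine before the reductional division of germ cells. Listed were 37 such genes, chosen by symbol, and 32 of them are among the 14812 genes of the expression table. TEX12, PRDM9, MSH5, MAJIN and RNF212 are not in the table and were not analysed here. As background, fetal female germ cells enter meiosis when STRA8 and its partner MEIOSIN switch on a broad set of these genes, in response to retinoic acid and BMP signals. Cohesins with the subunits REC8 or RAD21L1 then shape the chromosome axis, SPO11 and its partners cut the DNA, DMC1 and its helpers carry out strand exchange, and the synaptonemal complex joins the homologues while crossovers form. Before that stage, germ cells hold many of these genes silent, in part through DNA methylation and through repressor complexes that contain E2F6, MGA and PCGF6.

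The study made primordial germ cell-like cells (cjPGCLCs) from embryonic stem cells (cjESCs) of the common marmoset, and asked which signals the induction needs and how far the cells develop in reconstituted ovaries. RNA was sequenced from 27 conditions with 2 libraries each, 54 in all, made from poly(A) RNA with a directional kit. All cells descend from CMES40, which is 1 female embryonic stem cell line, with BLIMP1-tdTomato and NANOS3-eGFP reporters, so no result here speaks for other lines. The study calls its samples biological duplicates, and the labels do not say whether the replicates are separate cultures.

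The transgenic cells carry rtTA with tetO-BLIMP1, and also SOX17-GR and DD-TFAP2C, whose number differs between labels. They were kept in the medium DK20FA. They gave the cells treated for 12, 24, 48 and 96 h with BLSE (BMP4, LIF, SCF, EGF and Rock inhibitor), with enforced SOX17 and BLSE, or with enforced SOX17 and LSE, which lacks BMP4. By the study's methods, SOX17 was enforced by adding dexamethasone, so SOX17 and dexamethasone cannot be told apart here. The cells labelled wild type were kept in the medium PESFA and pre-treated with the WNT activator IM12 and activin A (called Pre). From Pre came the cells treated for 12, 24, 48 and 96 h with BLSE and the WNT inhibitor IWR1, with or without BMS493 (BMS), an inverse agonist of retinoic acid receptors. The same BLSE + IWR1 route gave the day 6 cjPGCLCs, and cjPGCLCs put together with somatic cells of mouse gonads (xrOvaries) gave cells at days 20, 40 and 70. By the study's methods, these aggregates were given 1 µM retinoic acid for their initial 2 days. cjESCs and Pre were sorted for TRA-1-60, and the cells of day 6, of the xrOvaries and of 96 h for tdTomato, except those of 96 h BLSE, which like all cells of 12 to 48 h were not sorted. Genotype and medium cannot be told apart between the starting cells, nor can sorting and treatment between 96 h BLSE and the other 96 h cells.

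Levels are TPM, which are scaled for transcript length. How many reads a library had cannot be read from TPM, and a gene without signal is called listed at 0. Values are given for replicate 1 and then replicate 2. Fold changes are differences of mean log2(TPM + 1), and for genes with low TPM the added 1 makes them smaller than the change in TPM. They were tested with limma over all 54 libraries and adjusted by Benjamini-Hochberg over the 11197 genes that reach a log2 value of 1.5 in at least 1 library, and a gene is called at an adjusted p under 0.01. Of the 32 members, 18 passed that filter and 14 did not, so counts of called members cover the 18 alone. With 2 libraries against 2, permuting the labels of a single gene exactly cannot give a p below 0.33.

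Detection was uneven within the group of genes. Per library, between 14 and 25 of the 32 members were listed above 0, with a median of 18 over the 54 libraries. At 1 TPM or more there were between 8 and 16, with a median of 11.5. The share of members above 0 was 43.8 to 78.1 percent (median 56.2), while among all genes of the table it was 68.5 to 85.7 percent (median 82.3). The fewest members were above 0 in replicate 1 of 96 h BLSE, and the most, 25 and 24, in the libraries of day 70, where no other library passed 22. All genes above 0 numbered 11824 and 11692 at day 70, which is below the median of 12200. Replicate 2 of day 20 stood apart from the other libraries, with 10146 genes above 0 and 16 members, against 11441 genes and 21 members in replicate 1.

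**Figure D1:**
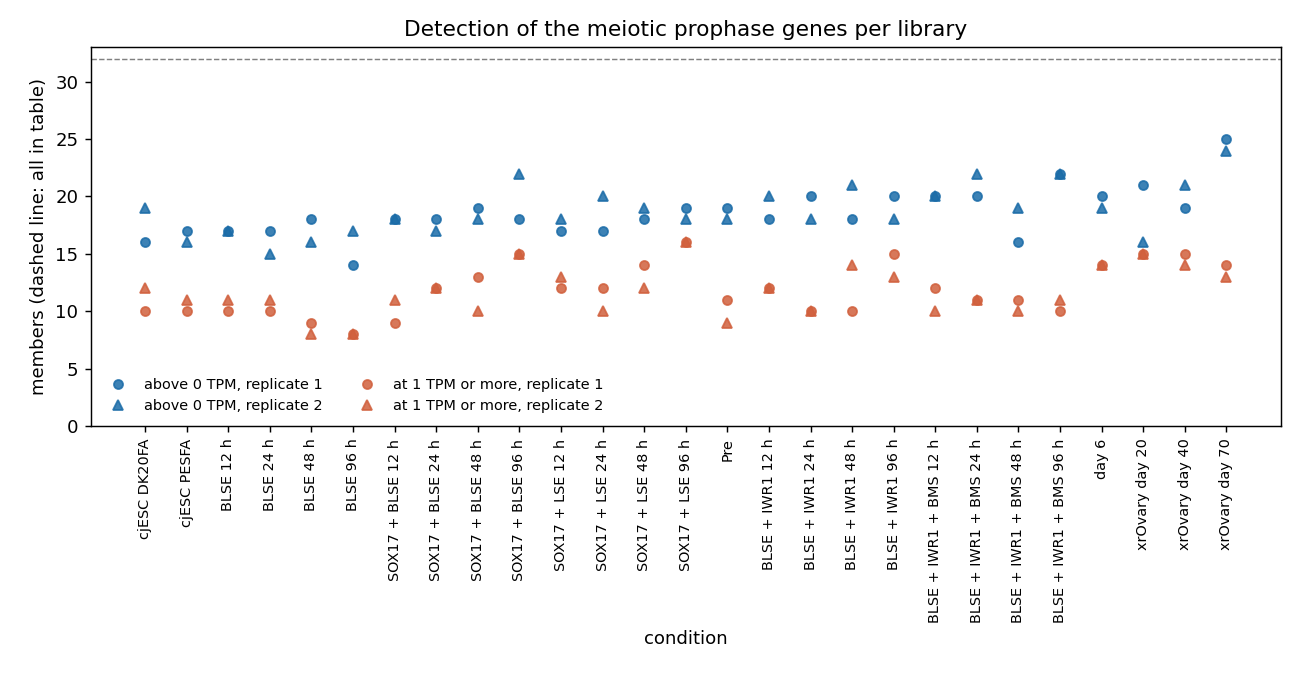
Number of meiotic prophase genes per library listed above 0 TPM (blue) and at 1 TPM or more (orange) in the 27 conditions, with replicate 1 as circles, replicate 2 as triangles and the 32 genes of the table as a dashed line. The day 70 libraries reached 25 and 24 genes above 0, but 14 and 13 at 1 TPM or more, within the 8 to 16 of the other libraries.

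A few members carried most of the signal. TERB2, CCNB1IP1, MND1 and PSMC3IP were the 4 members at 10 TPM or more in all 54 libraries, and together they summed to between 127.7 and 235.3 TPM (median 169.1). The other 28 summed to at most 143.6 TPM, with a median of 25.7. That sum was 35.7 and 26.5 TPM at day 6, 97.1 and 69.0 at day 20, 106.5 and 116.0 at day 40, and 133.5 and 143.6 at day 70. In no library before day 20 did it pass 43.2 TPM. Much of the difference was REC114, since without it the sum was between 45.7 and 74.6 TPM in the xrOvaries and at most 41.8 TPM before day 20. YTHDC2 was the only further member at 1 TPM or more in all 54 libraries, and SMC1B and MEI4 were above 0 in all of them. SPO11 and TEX15 were listed at 0 in all 54 libraries, and 11 members in all, these included, stayed under 1 TPM in each library. Values near 0 also occur here for genes that dividing cells need, as CDK1 was listed at 0 in 5 libraries and MKI67 ranged from 0.15 to 5.5 TPM while TOP2A ranged from 152 to 412, and whether the table understates single genes was not tested.

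**Figure D2:**
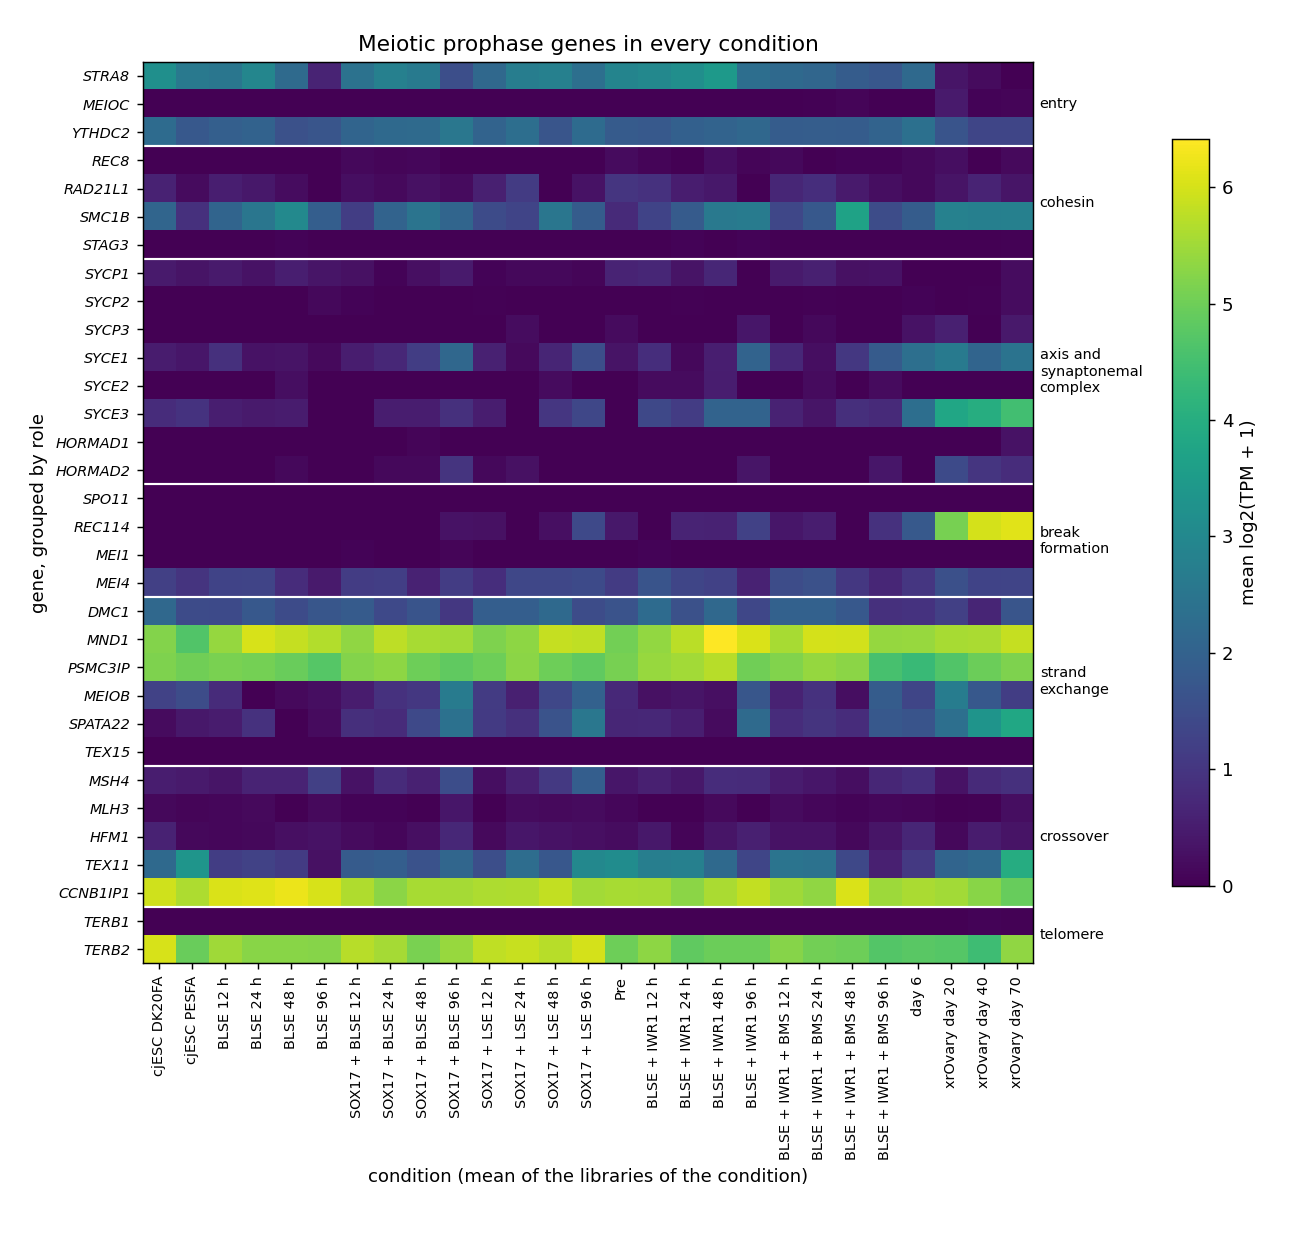
Mean log2(TPM + 1) of each of the 32 members (vertical axis, grouped by role) in each of the 27 conditions (horizontal axis), from dark at 0 to yellow at the top of the scale. TERB2, CCNB1IP1, MND1 and PSMC3IP are high throughout, REC114 is high from day 20, and most genes of the axis and of cohesin stay dark.

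Between day 6 and day 70, 10 of the 18 members tested were called, while 31.3 percent of all genes tested were called. Of these, 7 rose (REC114, TEX11, SPATA22, SYCE3, PSMC3IP, HORMAD2 and TERB2), where 7.46 percent of all genes rose, and 3 fell (STRA8, YTHDC2 and CCNB1IP1), where 23.8 percent of all genes fell. HORMAD2 passed the filter only through replicate 2 of day 20, an xrOvary library outside this comparison, and it adds no support to the count. The median log2 fold change was 0.48 over the 18 members and −0.20 over all genes tested. Without replicate 1 of day 70 the count was 5, and REC114, TEX11, SPATA22, PSMC3IP and STRA8 were the 5 called whichever of the 4 libraries was left out. With a pseudocount of 0.1 the count was 8, without SYCE3 and SPATA22, and with a fit of these 4 libraries alone it was 4. Other scalings of the libraries moved the median of all genes by 0.20 (median-ratio) and 0.23 (quantile), and the share of called genes that rose from 23.8 to 44.8 and 49.7 percent, while the member count was 11 and 10 and no called member changed direction. In bulk RNA, fewer cells of a type and less RNA per cell cannot be told apart. At day 70, 22 members were above 0 in both libraries, against 17 at day 6, 15 at day 20 and 17 at day 40. Among the 22 were SYCP1, SYCP2, REC8, HORMAD1 and MLH3, which were at most at 0.36 TPM there. The same counts over all genes were not made. At 1 TPM or more in both libraries there were 12 at day 6, 14 at day 20, 13 at day 40 and 13 at day 70.

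Called members were also counted for each step of the course, and differences between the steps were not tested. From cjESCs in PESFA to day 6, 6 of 18 members were called, with 44.9 percent of all genes. SYCE1, SPATA22, REC114 and MND1 rose and TEX11 and PSMC3IP fell. REC114 passed the filter only through sorted cells of 96 h, day 6 and the xrOvaries, and SYCE1 only through these and replicate 1 of 48 h SOX17 + BLSE. In the comparisons with cjESCs, these genes therefore add no support to a count. Between day 6 and day 20, 4 were called, with 20.4 percent of all genes, of which REC114, HORMAD2 and MEIOB rose and STRA8 fell. HORMAD2 passed the filter only through replicate 2 of day 20, the library with few detected genes, so it adds no support to that count. Without that library, on the same genes, the count was 3. From day 20 to day 40, limma called 0 members, with 4.6 percent of all genes. Of the 11197 genes tested, 2443 had an unadjusted p under 0.05, as did 4 of the 18 members (HORMAD2, MEIOB, SPATA22 and REC114). From day 40 to day 70, 2 were called, TEX11 and TERB2, both higher, with 2.73 percent of all genes. That count was 1 without replicate 2 of day 40 and 1 without replicate 1 of day 70.

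**Figure D3:**
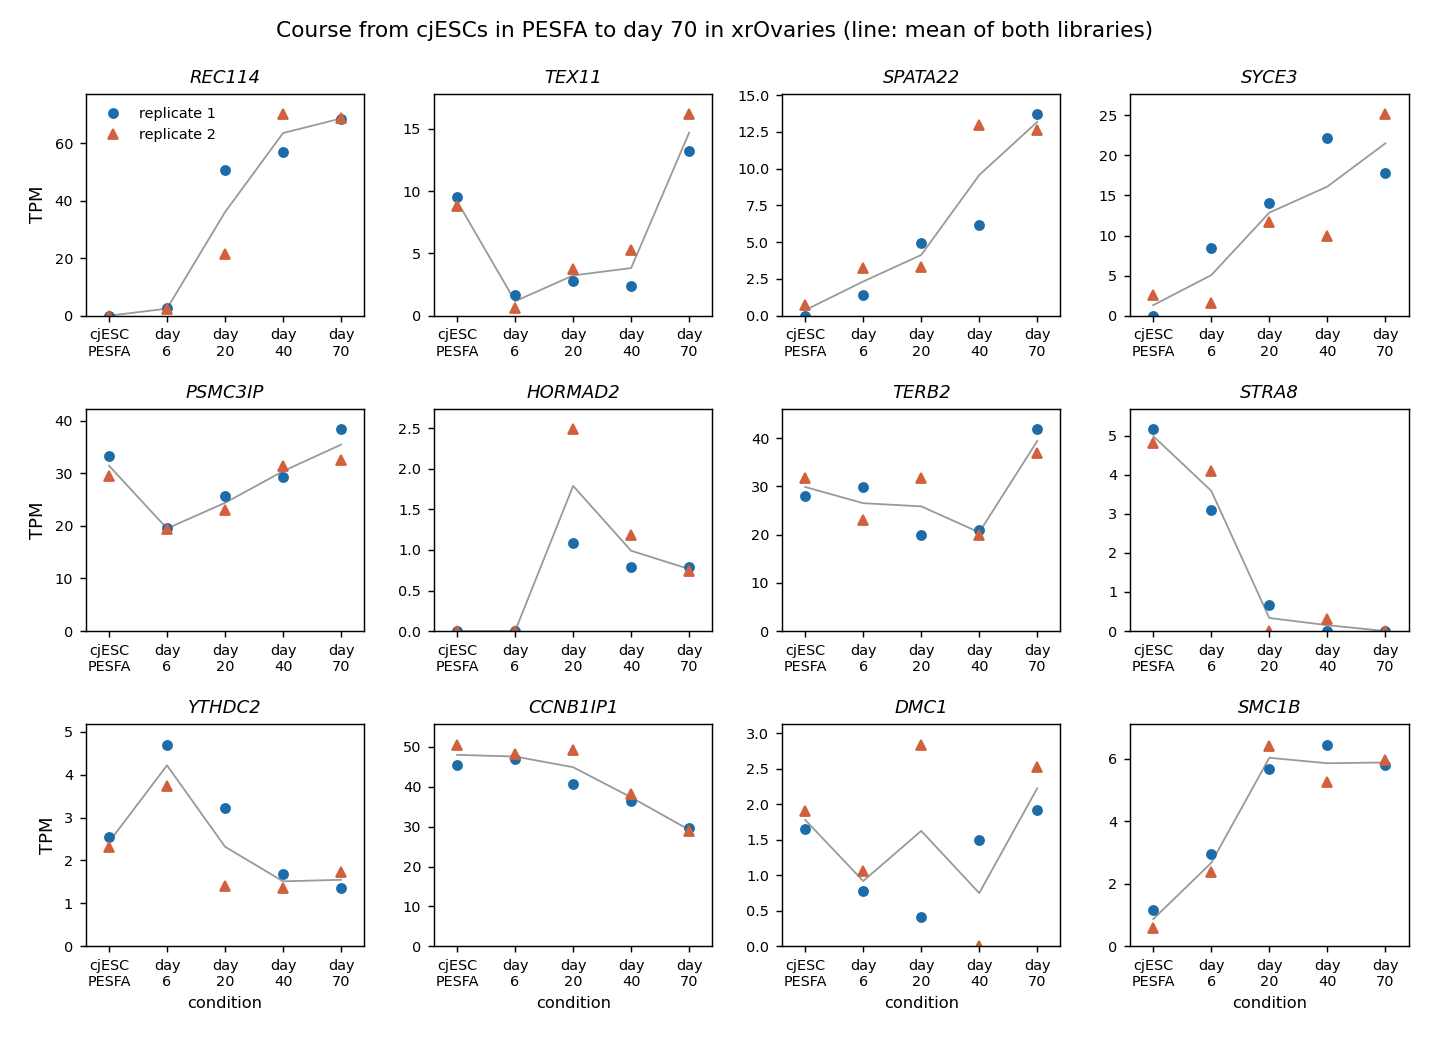
TPM of the 10 members called between day 6 and day 70 and of DMC1 and SMC1B, in cjESCs in PESFA and at days 6, 20, 40 and 70, with replicate 1 as circles, replicate 2 as triangles and a line through the means of both. REC114 went from 2.71 and 2.2 TPM at day 6 to 68.4 and 69.0 at day 70, while STRA8 went from 3.09 and 4.09 to 0 in both libraries.

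STRA8 (gene ID 100410114), the transcription factor at the gate of meiosis, was present in cjESCs and at or near 0 in the xrOvaries. It stood at 6.88 and 9.63 TPM in cjESCs in DK20FA and at 5.17 and 4.81 in cjESCs in PESFA. At day 6 it was at 3.09 and 4.09, at day 20 at 0.67 and 0, at day 40 at 0 and 0.3, and at day 70 at 0 in both libraries. The day 6 libraries and the 6 xrOvary libraries did not overlap. STRA8 fell between day 6 and day 20 (log2 fold change −1.82, SE 0.25, adjusted p 3.54e-07) and was lower at day 70 than at day 6 (−2.19, SE 0.25, adjusted p 2.66e-09). Its highest value in the series was 12.2 TPM, in replicate 2 of 48 h BLSE + IWR1. In all 32 libraries of Pre and of 12 to 48 h it was between 2.51 and 12.2 TPM.

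The other entry genes are YTHDC2 and MEIOC. YTHDC2 (100413395), an RNA helicase that, with MEIOC, clears mitotic transcripts as meiosis starts, was at 4.7 and 3.73 TPM at day 6, 3.23 and 1.41 at day 20, 1.68 and 1.35 at day 40, and 1.36 and 1.74 at day 70. It was at 4.13 and 3.34 in cjESCs in DK20FA, 2.55 and 2.31 in PESFA, 1.33 to 4.64 in Pre and at 12 to 48 h and 1.76 to 5.12 at 96 h, with the highest value of the series in replicate 2 of 96 h SOX17 + BLSE. Every day 70 value was below both day 6 values. YTHDC2 fell from day 6 to day 70 (log2 fold change −1.03, SE 0.26, adjusted p 0.00165), a call that was lost without replicate 1 of day 6 (−0.90, adjusted p 0.0319), without replicate 1 of day 70 (−0.92, adjusted p 0.0274) and with quantile scaling (−0.67, adjusted p 0.0265). The call for YTHDC2 was kept in 6 of 10 settings. MEIOC (100390495) was listed at 0 in 49 of 54 libraries. Its other values were 0.92 TPM in replicate 2 of day 20, 0.13 in replicate 1 of day 70, 0.11 and 0.06 in replicate 2 of 48 h and of 24 h BLSE + IWR1 + BMS, and 0.08 in replicate 2 of day 40, and no condition had MEIOC above 0 in both libraries.

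Of the meiotic cohesin subunits, SMC1B was above 0 in all libraries, RAD21L1 was at 1 TPM or more in 4 and REC8 and STAG3 were near 0. REC8 (100395711), the kleisin that holds sister chromatids together through meiosis, was listed at 0 in 39 libraries and reached at most 0.37 TPM, in replicate 1 of day 20. It was at 0.19 and 0 at day 6, 0.37 and 0 at day 20, 0 in both libraries at day 40, and 0.11 and 0.13 at day 70, and it was at 0 in all 4 cjESC libraries. STAG3 was above 0 in 4 libraries, at most at 0.09 TPM, and RAD21L1 was above 0 in 36, with a highest value of 2.08 TPM in replicate 1 of 24 h SOX17 + LSE. Of the mitotic subunits, RAD21 was at 206 and 198 TPM, SMC3 at 249 and 242, SMC1A at 79.1 and 88.0, STAG1 at 2.29 and 1.81 and STAG2 at 5.9 and 6.4 at day 70.

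SMC1B (100411712), the meiotic partner of SMC3, was at 2.52 and 4.08 TPM in cjESCs in DK20FA and 1.15 and 0.6 in PESFA. It was at 2.97 and 2.38 at day 6, 5.67 and 6.4 at day 20, 6.46 and 5.26 at day 40, and 5.79 and 5.98 at day 70. All 6 xrOvary values lay above both day 6 values. The difference between day 70 and day 6 missed the threshold (log2 fold change 0.91, SE 0.33, adjusted p 0.0252), and it passed with median-ratio scaling (1.13, adjusted p 0.0028) and with quantile scaling (1.298, adjusted p 0.000542). The highest values were 16.2 and 8.78 TPM, at 48 h of BLSE + IWR1 + BMS, and the lowest 0.47, in replicate 2 of 12 h SOX17 + BLSE, which is also the range over Pre and 12 to 48 h. At 96 h it was at 3.19 and 2.45 in BLSE, 3.37 and 3.15 in SOX17 + BLSE, 3.32 and 2.08 in SOX17 + LSE, 3.87 and 7.17 in BLSE + IWR1, and 1.73 and 1.85 in BLSE + IWR1 + BMS.

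Among the genes of the axis and the synaptonemal complex, the central element genes SYCE1 and SYCE3 were present in the later germ cells while the lateral and transverse filament genes were near 0. SYCE3 (103787969) was at 0 and 2.04 TPM in cjESCs in DK20FA, 0 and 2.63 in PESFA, between 0 and 3.17 in Pre and at 12 to 48 h, and between 0 and 4.5 at 96 h. It was at 8.48 and 1.64 at day 6, 14.0 and 11.7 at day 20, 22.2 and 9.98 at day 40, and 17.8 and 25.2 at day 70. The day 6 replicates differed widely, yet every xrOvary value was above both. SYCE3 rose from day 6 to day 70 (log2 fold change 2.15, SE 0.64, adjusted p 0.00618, ratio of mean TPM 4.25), but the call rests on few libraries. Of 10 settings, 4 kept that call. It was lost without replicate 2 of day 6 (1.23, adjusted p 0.219), without replicate 1 of day 70 (2.39, adjusted p 0.018), without replicate 2 of day 70 (1.91, adjusted p 0.06) and with a pseudocount of 0.1 (adjusted p 0.269).

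SYCE1 (100395376) was at 0.29 and 0.52 TPM in cjESCs in DK20FA and 0.73 and 0 in PESFA, at 4.45 and 3.67 at day 6, 4.6 and 5.89 at day 20, 2.97 and 3.38 at day 40, and 5.21 and 3.71 at day 70. The day 6 values were above both PESFA values and within the range of the xrOvary values. SYCE1 rose from cjESCs in PESFA to day 6 (log2 fold change 1.94, adjusted p 5.77e-06), and its difference between day 6 and day 70 was 0.10 (adjusted p 0.859). Its 96 h values were 3.3 and 3.49 in SOX17 + BLSE, 2.25 and 1.64 in SOX17 + LSE, 3.15 and 3.02 in BLSE + IWR1 and 2.4 and 2.75 in BLSE + IWR1 + BMS, but 0 and 0.24 in BLSE.

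SYCP3 (103795381), the lateral element protein most used to mark prophase nuclei, was listed at 0 in 47 of 54 libraries. It was at 0.57 and 0 TPM at day 6, 1.19 and 0 at day 20, 0 in both at day 40, and 0 and 0.85 at day 70. The remaining 4 values above 0 were 0.35, 0.29, 0.69 and 0.21, in replicate 2 of 24 h SOX17 + LSE, of Pre and of 96 h BLSE + IWR1 and in replicate 1 of 24 h BLSE + IWR1 + BMS. No condition had SYCP3 above 0 in both libraries. SYCP1, the transverse filament, was above 0 in 41 libraries with at most 0.99 TPM, yet at 0 in both libraries of day 6, day 20 and day 40, and at 0.23 and 0.09 at day 70. SYCP2 was above 0 in 9 libraries, with a highest value of 0.25 at day 70, and SYCE2 in 7, with a highest value of 1.02 and with 0 in all xrOvary libraries.

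The HORMA-domain proteins HORMAD1 and HORMAD2 mark unsynapsed axes. HORMAD2 (100387185) was listed at 0 in the cjESC libraries of both media and at day 6, at 1.09 and 2.49 TPM at day 20, 0.79 and 1.19 at day 40, and 0.79 and 0.74 at day 70. All 6 xrOvary values lay above both day 6 values. HORMAD2 was in the test only because replicate 2 of day 20, at 2.49, passed the filter, and the next highest value in the series was 1.19. HORMAD2 rose from day 6 to day 20 (log2 fold change 1.43, adjusted p 6.12e-07, and 1.08e-07 with no filter) and was higher at day 70 than at day 6 (0.82, SE 0.20, adjusted p 0.00106), a call lost without replicate 1 of day 70 (0.80, adjusted p 0.0121). In Pre and at 12 to 48 h its values were between 0 and 0.23, and at 96 h they were 0.87 and 1.06 in SOX17 + BLSE, 0.64 and 0 in BLSE + IWR1, 0.21 and 0.44 in BLSE + IWR1 + BMS, and 0 in both libraries of BLSE and of SOX17 + LSE. HORMAD1 was above 0 in 3 libraries, at 0.13 in replicate 2 of 48 h SOX17 + BLSE and at 0.13 and 0.36 at day 70.

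Among the genes of DNA break formation, REC114 (100396799) had the largest change from day 6 to day 70 of the 18 members tested. REC114 works with MEI4 and IHO1 to assemble the sites where SPO11 cuts. It was listed at 0 in all 4 cjESC libraries and was between 0 and 1.35 TPM in Pre and at 12 to 48 h and between 0 and 2.81 at 96 h. It was at 2.71 and 2.2 at day 6, 50.8 and 21.3 at day 20, 56.9 and 70.3 at day 40, and 68.4 and 69.0 at day 70, so every xrOvary value was above every earlier one. REC114 rose from cjESCs in PESFA to day 6 (log2 fold change 1.79, adjusted p 8.58e-05), from day 6 to day 20 (3.30, adjusted p 5.68e-09) and from day 6 to day 70 (4.34, SE 0.37, adjusted p 2.52e-12, ratio of mean TPM 28.0).

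The partners of REC114 were low, and whether their courses differ from its own was not tested. SPO11 (100403185), the enzyme that makes the breaks, was listed at 0 in all 54 libraries. MEI4 (103792524) was above 0 in all 54, between 0.09 and 2.54 TPM, with 0.84 and 1.22 at day 6 and 1.49 and 1.51 at day 70 (log2 fold change 0.31, adjusted p 0.372). MEI1 was above 0 in 3 libraries, at most at 0.13 TPM, and at 0 in all xrOvary libraries. IHO1, at 0.18 and 0.38 TPM at day 6, was at 0.39 and 2.67 at day 20 and 0.33 and 0.13 at day 70.

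Of the strand exchange genes, the cofactors MND1 and PSMC3IP were abundant in every library and DMC1 itself was low. PSMC3IP (100411170), which forms a complex with MND1 that helps the recombinase DMC1, was at 38.0 and 31.9 TPM in cjESCs in DK20FA, 33.3 and 29.6 in PESFA, 25.9 to 56.7 in Pre and at 12 to 48 h and 22.0 to 33.2 at 96 h. It was at 19.7 and 19.3 at day 6, 25.7 and 23.0 at day 20, 29.4 and 31.4 at day 40, and 38.4 and 32.5 at day 70. The day 6 values were the lowest of the series. PSMC3IP fell from cjESCs in PESFA to day 6 (log2 fold change −0.66, adjusted p 0.000547, lost without replicate 1 of PESFA with −0.58 and an adjusted p of 0.0128) and rose from day 6 to day 70 (0.83, SE 0.16, adjusted p 4.77e-05, ratio of mean TPM 1.82).

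MND1 (100407155) was at 32.8 and 39.8 TPM in cjESCs in DK20FA, 29.1 and 20.7 in PESFA, 37.8 to 70.3 at 96 h and 29.5 to 91.8 in Pre and at 12 to 48 h, with the top values, 77.1 and 91.8, at 48 h of BLSE + IWR1. It was at 41.5 and 42.9 at day 6, 42.3 and 51.4 at day 20, 43.9 and 51.9 at day 40, and 56.3 and 55.9 at day 70. Both day 70 values were above both day 6 values, but the difference missed the threshold (log2 fold change 0.40, adjusted p 0.0862). MND1 rose from cjESCs in PESFA to day 6 (0.76, adjusted p 0.000882), which was lost without replicate 2 of PESFA (0.52, adjusted p 0.056).

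DMC1 (100408835), the recombinase found only in meiosis, was above 0 in 53 libraries, between 0 and 4.25 TPM with a median of 2.31. It was at 3.56 and 3.47 in cjESCs in DK20FA, 1.65 and 1.91 in PESFA, 0.78 and 1.06 at day 6, 0.41 and 2.84 at day 20, 1.5 and 0 at day 40, and 1.92 and 2.53 at day 70. The day 70 libraries were above the day 6 libraries and within the range of the cjESC libraries. The difference between day 70 and day 6 missed the threshold (log2 fold change 0.75, SE 0.35, adjusted p 0.0896). At 96 h DMC1 was at 2.25 and 2.35 in BLSE, 1.11 and 1.01 in SOX17 + BLSE, 2.27 and 1.4 in SOX17 + LSE, 2.04 and 1.2 in BLSE + IWR1, and 0.83 and 0.88 in BLSE + IWR1 + BMS, and in Pre and at 12 to 48 h it was between 0.96 and 4.25.

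SPATA22 and MEIOB form a single-stranded DNA binding pair that protects resected ends. SPATA22 (100407185) was at 0 and 0.29 TPM in cjESCs in DK20FA, 0 and 0.75 in PESFA, 0 to 2.76 in Pre and at 12 to 48 h and 0 to 5.22 at 96 h. It was at 1.38 and 3.27 at day 6, 4.94 and 3.32 at day 20, 6.16 and 13.0 at day 40, and 13.7 and 12.6 at day 70. Every xrOvary value was above both day 6 values, though 3.32 only just. SPATA22 rose from cjESCs in PESFA to day 6 (log2 fold change 1.27, adjusted p 0.00528), a call lost without replicate 2 of day 6 (0.85, adjusted p 0.132) or replicate 1 of PESFA (0.86, adjusted p 0.12), and rose from day 6 to day 70 (2.15, SE 0.38, adjusted p 1.72e-05, ratio of mean TPM 5.67). The latter call was lost with a pseudocount of 0.1 (2.57, adjusted p 0.0293) and with a fit of these 4 libraries alone (adjusted p 0.0215).

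MEIOB (103796490) was at 0.52 and 2.85 TPM in cjESCs in DK20FA, 2.58 and 1.18 in PESFA, 1.62 and 1.48 at day 6, 4.53 and 6.52 at day 20, 2.49 and 2.33 at day 40, and 1.6 and 0.93 at day 70. Day 20 stood above day 6, while day 70 overlapped with it. MEIOB rose from day 6 to day 20 (log2 fold change 1.34, adjusted p 0.00197), which was lost without replicate 1 of day 6 (adjusted p 0.0147), replicate 2 of day 6 (adjusted p 0.0204) or replicate 2 of day 20 (1.12, adjusted p 0.0453) and with a pseudocount of 0.1 (adjusted p 0.0742), and its difference between day 6 and day 70 was −0.19 (adjusted p 0.71). TEX15, which meiotic repair and piRNA-guided silencing need, was listed at 0 in all 54 libraries.

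TEX11 (100895800), an X-linked gene whose protein works in crossover formation, was lower at day 6 than in cjESCs in PESFA and at day 70. In the BLSE + IWR1 route it was already at 1.37 and 1.75 TPM at 96 h, and with BMS at 0.74 and 0.26. It was at 3.96 and 3.24 TPM in cjESCs in DK20FA, 9.54 and 8.84 in PESFA, 8.02 and 7.44 in Pre, between 0.88 and 6.85 at 12 to 48 h, and between 0 and 8.35 at 96 h. It was at 1.69 and 0.63 at day 6, 2.75 and 3.71 at day 20, 2.35 and 5.3 at day 40, and 13.2 and 16.2 at day 70. All 6 xrOvary values lay above both day 6 values, and the day 70 values were the highest of the series. TEX11 fell from cjESCs in PESFA to day 6 (log2 fold change −2.28, adjusted p 7.16e-08) and rose from day 6 to day 70 (2.90, SE 0.31, adjusted p 5.91e-10, ratio of mean TPM 12.7) and from day 40 to day 70 (1.77, adjusted p 0.000168), where the call was lost without replicate 1 of day 40 (1.31, adjusted p 0.0351) and with a pseudocount of 0.1 (adjusted p 0.0176).

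CCNB1IP1 (100413468), a ubiquitin ligase also called HEI10 that marks crossover sites, was at 60.6 and 60.8 TPM in cjESCs in DK20FA, 45.4 and 50.6 in PESFA, 36.04 to 82.75 in Pre and at 12 to 48 h and 37.8 to 67.0 at 96 h. It was at 47.0 and 48.1 at day 6, 40.6 and 49.1 at day 20, 36.4 and 38.3 at day 40, and 29.6 and 28.8 at day 70. The day 70 values were the lowest of the 54. CCNB1IP1 fell from day 6 to day 70 (log2 fold change −0.69, SE 0.18, adjusted p 0.00218), in both libraries against both. The call was lost without replicate 1 of day 6 (−0.70, adjusted p 0.0149), replicate 2 of day 6 (−0.67, adjusted p 0.0187), replicate 1 of day 70 (−0.71, adjusted p 0.014) or replicate 2 of day 70 (−0.67, adjusted p 0.02), and with median-ratio scaling (−0.42, adjusted p 0.0248) and quantile scaling (−0.38, adjusted p 0.0513). MSH4 was between 0 and 3.2 TPM, with its highest values at 96 h of SOX17 + LSE, HFM1 between 0 and 1.27, and MLH3 between 0 and 0.45.

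TERB1 and TERB2 tether meiotic telomeres to the nuclear envelope, and their levels were far apart. TERB2 (100405027) was at 68.1 and 60.8 TPM in cjESCs in DK20FA, 28.1 and 31.7 in PESFA, 23.8 to 60.8 in Pre and at 12 to 48 h and 21.8 to 74.5 at 96 h. It was at 30.0 and 23.1 at day 6, 20.0 and 31.7 at day 20, 21.0 and 20.0 at day 40, and 41.9 and 37.0 at day 70. Both day 70 values lay above those of days 6, 20 and 40. TERB2 rose from day 40 to day 70 (log2 fold change 0.91, adjusted p 0.000543), which was lost without replicate 2 of day 40 (0.88, adjusted p 0.0138) or replicate 1 of day 70 (0.82, adjusted p 0.0256). Its rise from day 6 to day 70 (0.56, SE 0.17, adjusted p 0.00826, ratio of mean TPM 1.49) was lost without replicate 2 of day 6 (0.38, adjusted p 0.167), replicate 1 of day 70 (0.48, adjusted p 0.0894) or replicate 2 of day 70 (0.65, adjusted p 0.0169). The rise of TERB2 from day 6 to day 70 was kept in 5 of 10 settings. TERB1 was above 0 in 2 libraries, at 0.08 TPM in replicate 1 of day 40 and 0.06 in replicate 1 of day 70.

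The study asked what SOX17 and BMP4 each bring to the induction. At 96 h in the transgenic cells, each count below is against the same cjESC libraries in DK20FA. Differences between SOX17 + BLSE, SOX17 + LSE and BLSE were not tested, so the counts do not show what SOX17 or BMP4 brings. With SOX17 + BLSE, 8 of 18 members were called, with 43.2 percent of all genes. SPATA22 (3.79 and 4.81 TPM against 0 and 0.29, log2 fold change 2.22), SYCE1 (1.65), MEIOB (4.16 and 6.7 against 0.52 and 2.85, 1.38), MSH4 (1.77 and 1.97 against 0.61 and 0.27, 1.004) and HORMAD2 (0.97) rose, and STRA8 (2.68 and 1.3 against 6.88 and 9.63, −1.65), DMC1 (−1.13) and TERB2 (39.6 and 43.9 against 68.1 and 60.8, −0.61) fell. For these genes, which the test had picked, the libraries of the groups did not overlap. Without 1 library the count was 5 (replicate 1 or replicate 2 of 96 h), 4 (replicate 1 of DK20FA) or 6 (replicate 2 of DK20FA). MSH4 passed the filter only through the 96 h libraries with SOX17, so it adds no support to the count. It was lost whichever of these 4 libraries was left out (adjusted p 0.0085 with all, 0.0154 to 0.0829 without 1), and so was DMC1 (0.00678 with all, 0.0284 to 0.0381 without 1). MEIOB was lost without replicate 1 of DK20FA (0.71, adjusted p 0.112) or replicate 2 of 96 h (1.09, adjusted p 0.0253), and TERB2 without replicate 1 of DK20FA (−0.53, adjusted p 0.0412) or replicate 1 of 96 h (−0.54, adjusted p 0.0383). Other cell markers changed as well. The fibroblast markers COL1A1, COL1A2, COL3A1, DCN, LUM and POSTN summed to 207 and 243 TPM in the cjESCs and to 31.3 and 31.2 at 96 h, where 5 of the 6 fell, and 5 of 9 cell cycle genes fell, and their part in the result was not tested.

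With SOX17 + LSE, without BMP4, 5 members were called at 96 h, with 33.8 percent of all genes. SPATA22 (5.22 and 4.5 TPM, log2 fold change 2.36), REC114 (1.44 and 1.93 against 0 in both, 1.42), MSH4 (3.2 and 2.44, 1.41) and SYCE1 (2.25 and 1.64, 1.07) rose and STRA8 (4.3 and 3.9, −0.84) fell. For these genes, which the test had picked, no library overlapped with cjESCs in DK20FA. MSH4 again passed the filter only through 96 h libraries with SOX17 and adds no support. Of 10 settings, SPATA22 kept its call in 10, REC114 in 7, MSH4 in 6, STRA8 in 5 and SYCE1 in 1. STRA8 was lost without replicate 2 of DK20FA (−0.63, adjusted p 0.0965), replicate 1 of 96 h (adjusted p 0.0206) or replicate 2 of 96 h (adjusted p 0.0407). SYCE1 was lost whichever of the 4 was left out (adjusted p 0.0184 to 0.0815). REC114 was lost without replicate 1 (adjusted p 0.014) or replicate 2 (adjusted p 0.0128) of DK20FA or replicate 2 of 96 h (1.29, adjusted p 0.0239), and MSH4 without replicate 2 of DK20FA (1.24, adjusted p 0.0125) or replicate 1 of 96 h (1.27, adjusted p 0.012). The fibroblast markers summed to 108.3 and 175.0 TPM at 96 h, where DCN rose and COL1A1, COL1A2, COL3A1 and LUM fell.

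In BLSE alone, which gave unsorted cells, 3 members were called at 96 h, with 29.5 percent of all genes, and all fell. STRA8 was at 0.49 and 0.63 TPM against 6.88 and 9.63 in cjESCs in DK20FA (log2 fold change −2.55, adjusted p 9.05e-11). TEX11 was at 0 and 0.49 against 3.96 and 3.24 (−1.91, adjusted p 3.36e-06), and TERB2 at 37.7 and 36.5 against 68.1 and 60.8 (−0.78, adjusted p 0.000385, lost without replicate 1 of DK20FA with −0.70 and an adjusted p of 0.0112). For these genes, which the test had picked, no library of the groups overlapped. The count was 5 without replicate 2 of 96 h BLSE. The fibroblast markers summed to 1828 and 1157 TPM in 96 h BLSE and to 207 and 243 in the cjESCs, but not all went 1 way, as DCN and LUM rose and COL1A1 and COL1A2 fell. The 3 pluripotency markers fell together, from a sum of 4016.6 and 3582.0 TPM to 106.9 and 127.7. The part of these changes in the result was not tested.

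In the wild-type cells, the 96 h cells of BLSE + IWR1 had 6 called members against cjESCs in PESFA, with 43.4 percent of all genes. SPATA22 (2.74 and 4.7 against 0 and 0.75 TPM, log2 fold change 1.80), SMC1B (3.87 and 7.17 against 1.15 and 0.6, 1.77), SYCE1 (1.64), MND1 (70.3 and 61.0 against 29.1 and 20.7, 1.38) and REC114 (2.81 and 0.47 against 0 in both, 1.24) rose and TEX11 (1.37 and 1.75 against 9.54 and 8.84, −1.996) fell. The test had picked these genes, and their libraries did not overlap between the groups. REC114 rests on a single library, as the call was lost without replicate 1 of 96 h (0.56, adjusted p 0.268), and it was also lost without replicate 1 (adjusted p 0.023) or replicate 2 (adjusted p 0.026) of PESFA. SYCE1 was lost without replicate 2 of PESFA (1.24, adjusted p 0.0105) and SPATA22 without replicate 1 of PESFA (1.40, adjusted p 0.0119).

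With BMS added, 5 members were called at 96 h against cjESCs in PESFA, with 41.4 percent of all genes. SYCE1 (log2 fold change 1.44), SPATA22 (3.03 and 1.89 TPM, 1.37) and MND1 (44.0 and 37.8, 0.71) rose and TEX11 (0.74 and 0.26, −2.78) and STRA8 (1.92 and 2.76 against 5.17 and 4.81, −0.85) fell. The test had picked these genes, and the groups did not overlap for them. Of 10 settings, TEX11 kept its call in 10, SYCE1 in 8, SPATA22 in 7, MND1 in 6 and STRA8 in 5. STRA8 was lost without replicate 1 (adjusted p 0.028) or replicate 2 (adjusted p 0.0168) of PESFA or replicate 1 of 96 h (−0.67, adjusted p 0.0723), and SYCE1 without replicate 2 of PESFA (1.04, adjusted p 0.0316). SPATA22 was lost without replicate 1 of PESFA (0.96, adjusted p 0.0867) or replicate 1 of 96 h (1.13, adjusted p 0.0519), and MND1 without replicate 2 of PESFA (0.47, adjusted p 0.089) or replicate 1 of 96 h (0.60, adjusted p 0.0347). The 6 fibroblast markers, with COL1A1 the most abundant, summed to 2892.5 and 1654.4 TPM in the PESFA cjESCs, to 59.1 and 75.5 at 96 h of BLSE + IWR1, to 33.4 and 37.7 with BMS and to 33.0 and 36.5 at day 6. All 6 were lower at day 6 than in those cjESCs, although the cjESCs had been sorted for TRA-1-60, which the study also used to take cjESCs out of mouse feeder cells, and the part of such cells in the comparisons with PESFA was not tested.

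The direct comparison of BLSE + IWR1 with and without BMS asks what blocking retinoic acid receptors does to these genes, of which STRA8 is a known target of retinoic acid. STRA8 was at 7.35 and 6.63 TPM without and 3.06 and 4.07 with BMS at 12 h, 7.97 and 8.16 against 3.2 and 3.49 at 24 h, 8.25 and 12.2 against 2.79 and 2.51 at 48 h, and 3.83 and 4.16 against 1.92 and 2.76 at 96 h. At each time both libraries with BMS were below both without. At 96 h, limma called 0 of 18 members, with 0.732 percent of all genes. An unadjusted p under 0.05 was found for 5 members (STRA8, TEX11, SMC1B, MND1 and PSMC3IP, all lower with BMS). It was found for 1750 of the 11197 genes tested. The earlier times were compared after the values had been seen. At 12 h, limma called 0 members, with 0.0 percent of all genes. STRA8 was the 1 member with an unadjusted p under 0.05 (log2 fold change −0.82, adjusted p 0.243), among 1067 such genes. At 24 h it called 0, with 0.0893 percent of all genes, and STRA8 was again the 1 such member (−1.06, adjusted p 0.0371), among 722 such genes.

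At 48 h, STRA8 was the 1 member called between BLSE + IWR1 with and without BMS (log2 fold change −1.60, SE 0.25, adjusted p 3.9e-05), with 4.83 percent of all genes. The call held whichever of the 4 libraries was left out, and was lost with a pseudocount of 0.1 (adjusted p 0.0192) and with a fit of these 4 libraries alone (adjusted p 0.367). SMC1B was at 16.2 and 8.78 TPM with and 3.74 and 6.75 without BMS, which missed the threshold (1.097, adjusted p 0.0256), and at 96 h at 1.73 and 1.85 with and 3.87 and 7.17 without (−1.18, adjusted p 0.0447). Among 7 tested genes of the retinoic acid response, DHRS3, a retinal reductase, was the 1 called at 48 h, with 18.4 and 27.4 TPM with and 48.3 and 57.5 without BMS (−1.19, adjusted p 0.000599). RARG missed the threshold (−0.73, adjusted p 0.015). In these unsorted cells the 3 pluripotency markers fell too, with NANOG at 103 and 94.7 TPM with and 242 and 286 without BMS, SOX2 at 15.0 and 15.8 against 41.4 and 68.4, and POU5F1 at 2899 and 3200 against 5033 and 5779. SOX17 (50.6 and 100.1 against 25.3 and 15.9), PRDM1 (17.2 and 24.0 against 8.74 and 13.3) and LUM (8.79 and 16.6 against 3.89 and 2.09) rose, and PDPN fell. Whether STRA8 changed within a cell type or with the mix of cells cannot be told apart.

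**Figure D4:**
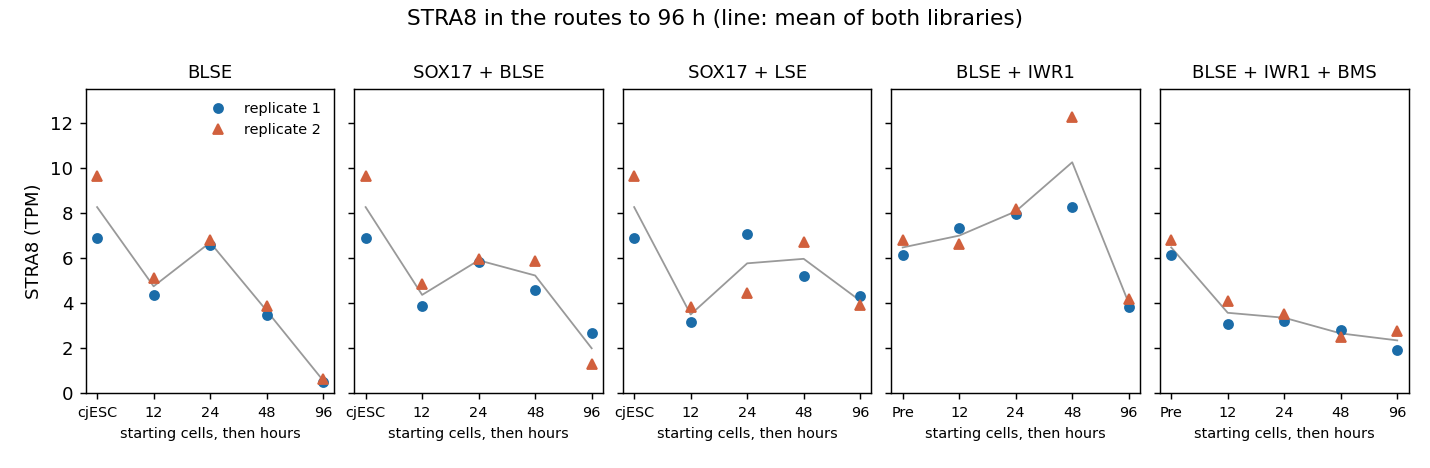
STRA8 in TPM (vertical axis from 0) in the starting cells and at 12, 24, 48 and 96 h of 5 treatments, with replicate 1 as circles, replicate 2 as triangles and a line through the means. With BLSE + IWR1 the values at 48 h were 8.25 and 12.2, with BMS 2.79 and 2.51, and in BLSE at 96 h 0.49 and 0.63.

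The routes to 96 h were compared by the difference between their changes from cjESCs, since each starts from its own genotype and medium. Of the 18 members, 4 differed between the SOX17 + BLSE route and the BLSE + IWR1 route, with 11.4 percent of all genes. Other lists differed too, as 4 of 9 cell cycle genes (CCNA2, CCNB1, AURKB and MCM2) had a lower and 3 of 6 fibroblast markers (COL1A1, COL3A1 and LUM) a higher change in the SOX17 route, and their part was not tested. TEX11 was near its level of the start with SOX17 (2.95 and 3.79 TPM after 3.96 and 3.24) and was lower in the IWR1 route (1.37 and 1.75 after 9.54 and 8.84), for a difference of 1.92 (adjusted p 0.00136). SMC1B (−1.76, adjusted p 0.00623), MND1 (−1.08, adjusted p 0.00328) and STRA8 (−1.39, adjusted p 0.00378) had a lower change in the SOX17 route. Of 14 settings, TEX11 kept its call in 11, MND1 in 9, STRA8 in 8 and SMC1B in 7. With a fit of the 8 libraries of the 4 conditions alone the count was 0, and with a pseudocount of 0.1 it was 2, without TEX11 (adjusted p 0.026) and STRA8 (adjusted p 0.104). Among single libraries, TEX11 was lost without replicate 2 of 96 h SOX17 + BLSE (1.78, adjusted p 0.0103). STRA8 was lost without replicate 2 of any of the 4 conditions, and most without that of 96 h SOX17 + BLSE (−1.05, adjusted p 0.0517). SMC1B was lost without those same 4 libraries or replicate 1 of 96 h SOX17 + BLSE, and most without replicate 2 of 96 h BLSE + IWR1 (−1.38, adjusted p 0.0612). MND1 was lost without replicate 2 of PESFA (−0.84, adjusted p 0.0457), replicate 2 of DK20FA (adjusted p 0.024), or replicate 1 of 96 h SOX17 + BLSE (adjusted p 0.0155) or of 96 h BLSE + IWR1 (adjusted p 0.0215).

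Other meiosis genes outside the list were counted as well, and whether their course differs from that of the members was not tested. Of 37 such genes, 26 are in the table and 16 were tested, and TOPAZ1, SHOC1, MAEL and PRR19 were among those that rose from day 6 to day 70, as 7.46 percent of all genes did. TOPAZ1, a germ cell gene needed for male meiosis, was at 0 and 0.06 TPM at day 6, 0.73 and 0.83 at day 20, 3.5 and 2.65 at day 40, and 21.4 and 22.0 at day 70. SHOC1, a crossover gene that passed the filter only through the day 70 libraries, was at 0 in both day 6 libraries and at 3.35 and 3.28 at day 70, and MAEL, a piRNA gene, went from 7.06 and 7.07 to 69.4 and 72.4. PRR19 was at 1.23 and 0 at day 6 and at 2.96 and 2.32 at day 70. MEIOSIN, the partner of STRA8, was at 0.68 and 0.31 TPM at day 6 and 0.14 and 0 at day 70, and KASH5, which links telomeres to the motor dynein, was at 0 in all libraries of days 6 to 70.

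Between day 6 and day 20, TOPAZ1 and MAEL rose among these 16 genes and 0 fell, where 20.4 percent of all genes were called. IHO1 and RNF212B passed the filter only through replicate 2 of day 20, so their calls are not counted. IHO1, the partner of REC114, was at 0.18 and 0.38 TPM at day 6 and 0.39 and 2.67 at day 20, and RNF212B at 0 and 0.18 and then 0.28 and 3.87 TPM. At day 70 they were at 0.33 and 0.13 and at 0 and 0.19.

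The counts for repressors, cell cycle genes and other lists from day 6 to day 70 stand against 7.46 percent of all genes that rose and 23.8 percent that fell on the deposited scale. Of the 11197 genes, 1542 rose and 1897 fell with median-ratio scaling and 1754 and 1775 with quantile scaling, and the lists were not counted on those scales. Of 12 tested repressors of germline genes, 0 rose and 5 fell, namely UHRF1 (18.6 and 13.7 to 5.7 and 5.71 TPM), DNMT1 (56.4 and 52.1 to 25.6 and 29.9), EHMT2 (2.69 and 3.23 to 1.14 and 0.93), DNMT3B (4.21 and 3.96 to 1.85 and 1.46) and MAX (46.6 and 42.6 to 33.5 and 29.7). E2F6, PCGF6 and RNF2 were at 21.5 and 21.1, 29.1 and 32.3, and 99.1 and 92.8 TPM at day 70. Of 9 tested cell cycle genes, PCNA rose and AURKB and PLK1 fell, and TOP2A was at 264 and 222 TPM at day 6 and 188 and 177 at day 70. Of the mitotic cohesin subunits, SMC1A rose and SMC3 fell, and among housekeeping genes EEF1A1 and RPLP0 rose and ACTB fell. Of 7 tested genes of the retinoic acid response, DHRS3 rose (16.6 and 17.8 to 56.9 and 61.7 TPM) and RARG and STRA6 fell.

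The marker lists describe the cells in which these levels were measured, and their counts stand against the same 7.46 and 23.8 percent. Later germ cell markers rose from day 6 to day 70 in 5 of 6 cases, of which DDX4 and PIWIL2 passed the filter only through the day 70 libraries and add no support, with DAZL at 0 in both libraries at day 6 and at 51.9 and 53.9 TPM at day 70, and DDX4 at 0 in both and then 2.42 and 2.48. Of 6 PGC markers, 0 rose and 5 fell, but SOX17 was still at 256 and 290 TPM and TFAP2C at 549 and 574 at day 70. Of 3 pluripotency markers, POU5F1 fell, to 4194 and 4257 TPM. Oocyte markers were low. Their sum over the 7 in the table was 4.7 and 3.2 TPM at day 6 and 9.0 and 2.0 at day 20. At day 40 it was 2.4 and 7.8 TPM, and at day 70 it was 3.6 and 4.1. Of the 4 tested, NOBOX fell, from 3.18 and 1.48 TPM at day 6 to 0 in all xrOvary libraries.

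The 7 markers of gonadal somatic cells in the table summed to 12.8 and 12.1 TPM at day 6, 2.8 and 6.9 at day 20, 3.0 and 2.0 at day 40, and 0.7 and 1.9 at day 70. NR5A1 was at 0 in each of these libraries, and FOXL2 was at most at 1.56 TPM and EMX2 at 4.39, both in replicate 2 of day 20. Of the 4 tested, FST and IRX3 fell from day 6 to day 70, and of the 6 fibroblast markers, COL1A1, COL1A2 and DCN fell. Whether mouse RNA adds to the xrOvary values was not tested.

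All 32 members were found by gene ID in the RefSeq gene table of the marmoset, which belongs to another assembly and was used for neighbours alone. For 19 of them it lists an overlapping gene, and for 6 of them that gene is also in the expression table. GCDH, which overlaps SYCE2, was at 29.3 and 31.6 TPM at day 70, where SYCE2 was at 0. CHPT1, which overlaps SYCP3, was at 24.8 and 24.4 TPM, CCDC43, which overlaps MEIOC, at 25.5 and 28.7, GPC2, which overlaps STAG3, at 1.11 and 3.31, ASB17, which overlaps MSH4, at 0.79 and 0, and MLX, which overlaps PSMC3IP, at 59.9 and 75.6. The genes listed as overlapping TERB2 (LOC118145255, LOC103795604 and LOC118145283) and CCNB1IP1 (LOC118145402 and LOC118145413) are not in the expression table, which covers genes shared with humans. Whether they add to the levels of TERB2 and CCNB1IP1 was not tested.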

How the data were processed

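The deposited values are TPM that the authors made with STAR and RSEM from poly(A) libraries, for genes that marmosets and humans share, so that the 14812 values of a library summed to between 790300 and 839203. Read totals are not known, so how far the detection counts depend on depth was not tested. From the TPM, log2(TPM + 1) was computed, and 11197 genes were kept, each reaching 1.5 in 1 or more of the 54 libraries. A mean per condition was fitted for the 27 conditions in limma 3.58.1 under R 4.3.3 (27 residual degrees of freedom, intensity trend), tested two-sided per gene, adjusted by Benjamini-Hochberg over all genes kept and called at an adjusted p under 0.01. The model was tested on simulated data. In all, 15 comparisons were made, 3 of them added after values were seen, with no adjustment across them. The authors' edgeR test needs counts and was not used. Members and lists were chosen with earlier results of these data known. Every member in the table is named. For members called between day 6 and day 70, with a mean of 10 TPM in any condition, or at the entry to meiosis, values per library are given for cjESCs and days 6 to 70, with other conditions as ranges or where a result uses them. The other genes named belong to 12 lists, and the results of some genes of these lists are not reported here. A planned search for promoter motifs was not run, as no promoter sequences were at hand. Alternatives were a pseudocount of 0.1, no filter, fits restricted to the compared libraries, a block for the replicate number, median-ratio and quantile scaling, other call thresholds and leaving out each library.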

Additional observations from a re-analysis of the deposited data

Results flagged for a closer look

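A test of the difference itself was past the threshold for 4 of 18 members tested, with 11.4 percent of all genes, when the change from cjESCs to 96 h in the SOX17 + BLSE route was compared with that in the BLSE + IWR1 route (limma, log2 scale, SOX17 route minus IWR1 route). For SMC1B the difference was −1.756 (adjusted p 0.00623), with changes of 0.01 and 1.77 in the 2 routes. For TEX11 it was 1.92 (adjusted p 0.00136), with changes of −0.076 and −1.996. For MND1 it was −1.079 (adjusted p 0.00328), with changes of 0.30 and 1.38. For STRA8 it was −1.391 (adjusted p 0.00378), with changes of −1.65 and −0.26. The routes differ in genotype, medium and pre-treatment as well as in the inducing agents, which cannot be told apart. Without 1 library the count was between 1 and 4, and with a fit of the 8 libraries alone it was 0. Cell cycle genes (4 of 9 lower) and fibroblast markers (3 of 6 higher) differed between the routes too. Whether single libraries are outliers was not tested.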

How the results depend on the processing

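The limits are these. With 2 libraries per condition, calls lean on a spread pooled over all conditions, and a lone library left by an omission is assumed to vary like the other groups. Values near 1 TPM depend on the log scale. Depth is unknown, so a value of 0 sets no limit. Over 55 fold changes of single members and their settings, 416 values stayed on their side of the threshold, 148 fell short of it, 2 newly passed it and 0 changed direction. Nearly all of the 55 were called in the main fit, so few could newly pass, and the 2 do not measure how often uncalled members would. Counts of called members without 1 library can include members that were not called with all libraries. With no filter on low values, 48 of the 55 stayed and 7 fell short. The cause of the changes below was not tested, except that fewer libraries leave fewer degrees of freedom and that another threshold admits other genes.

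With a fit of only the libraries compared, counts of called members were 1 from cjESCs to day 6, 0 from day 6 to 20, 0 from day 40 to 70, 4 from day 6 to 70, 3 for SOX17 + BLSE, 2 for SOX17 + LSE, 1 for BLSE, 1 for BLSE + IWR1, 1 with BMS, 0 for the route difference and 0 for BMS at 48 h. With thresholds after those of the study (4-fold and a mean above 1.5, which the study set on log2 CPM and which is set here on log2(TPM + 1)) they were, in the same order, 1, 1, 0, 4, 0, 0, 1, 0, 1, 0 and 0. With a pseudocount of 0.1, counts were 1 from day 40 to 70, 4 for SOX17 + BLSE, 2 for SOX17 + LSE, 5 for BLSE, 2 for the route difference and 0 for BMS at 48 h. At an adjusted p under 0.05, counts were 7 from day 6 to 20, 6 for BLSE, 2 for BMS at 96 h, 1 at 24 h and 2 at 48 h. Detection at 1 TPM or more gave a median of 11.5 members per library in place of 18.

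Leaving out 1 library gave 4 to 6 from cjESCs to day 6, 3 to 5 from day 6 to 20, 0 from day 20 to 40, 1 to 2 from day 40 to 70, 5 to 8 from day 6 to 70, 4 to 6 for SOX17 + BLSE, 2 to 3 for SOX17 + LSE, 3 to 5 for BLSE, 4 to 7 for BLSE + IWR1, 2 to 5 with BMS, 1 to 4 for the route difference, 0 for BMS at 12, 24 and 96 h and 1 at 48 h.

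With the replicate number as a block, counts were 7 from cjESCs to day 6, 4, 0, 2 and 10 over the later steps and from day 6 to 70, 8, 5, 3, 6 and 5 at 96 h, and 4 for the route difference. Replicates share only a number, and the pairing correlations across genes were between −0.0917 and 0.0361.

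Median-ratio scaling moved the median of all genes by −0.16 from cjESCs to day 6, −0.14 for SOX17 + BLSE, −0.15 for SOX17 + LSE, −0.21 for BLSE + IWR1 and −0.13 with BMS, and quantile scaling by −0.11 for SOX17 + BLSE and −0.13 for SOX17 + LSE. The share of called genes that rose went from 55.5 to 42.1 percent from cjESCs to day 6, from 32.2 to 45.6 from day 6 to 20 (quantile), from 25.0 to 42.2 and 46.5 from day 20 to 40, from 59.3 to 47.1 for SOX17 + BLSE, from 63.0 to 47.0 and 51.5 for SOX17 + LSE, from 58.7 to 41.8 for BLSE + IWR1, from 54.1 to 42.0 with BMS and from 59.8 to 72.2 for BMS at 96 h.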

Other observations

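Pre, the cells after IM12 and activin A, was in no comparison of these genes. It had 19 and 18 members above 0 and 11 and 9 at 1 TPM or more. STRA8 was at 6.13 and 6.8 TPM, TEX11 at 8.02 and 7.44, MND1 at 31.5 and 32.6 and SYCE3 at 0 in both libraries, and the fibroblast markers summed to 2437.8 and 4642.4 TPM. RAD21L1 was at 1.34 and 0.71 TPM there.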
